A study of Mus musculus with 2 samples.

Results

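The 10 genes described here encode enzymes of glycolysis that exist as muscle-type and general isoforms: the hexokinases Hk1 and Hk2, the phosphofructokinases Pfkm, Pfkl and Pfkp, the aldolase Aldoa, the enolases Eno1 and Eno3, and the phosphoglycerate mutases Pgam1 and Pgam2. They were found by gene name in the deposited table, where all 10 were present in 28 of 55350 transcript rows, among 30649 gene names in all. The samples were interscapular brown adipose tissue (BAT) of wild type (WT) mice and of mice lacking Taf7l (Taf7l KO), both on a C57BL/6 background and with no treatment named. Taf7l encodes a TBP-associated factor, a subunit of the general transcription machinery. Each genotype gave 1 mRNA-seq library made from the combined RNA of 6 mice, so neither a p-value nor an SD can be given. In the labels, 1 field puts the mice of both genotypes at 1 month, while another puts the KO mice at 3 months. The values are FPKM (read fragments scaled to transcript length and to the mapped reads of the library) as the authors deposited them, summed here over the rows of a gene name.

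Glycolysis breaks glucose down to pyruvate. Hexokinase traps glucose in the cell by adding a phosphate. Phosphofructokinase makes the committed step, aldolase splits the sugar into triose phosphates, and phosphoglycerate mutase and enolase act near the end of the pathway. For most of these steps the genome holds a gene used widely and another used mainly in muscle fibres: Pfkm, Eno3 (beta enolase) and Pgam2 are the muscle forms, while Pfkl, Pfkp, Eno1 (alpha enolase) and Pgam1 are used in most tissues. Hk2 is the insulin-responsive hexokinase of muscle and fat and Hk1 the general one. Aldoa serves muscle and most other tissues alike. Brown fat itself takes up much glucose when it makes heat, so these enzymes are also part of the normal fat cell.

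The depth was not listed in the table but was estimated from it as 25882409 mapped reads for WT and 78345839 for KO, 3.03 times as many. At that scale, the low values fell within 0.05 of whole reads for 82.4% of 91 genes (WT) and 83.0% of 53 genes (KO). Of these genes, 31 in WT and 15 in KO had set the scale as 1 read, so their part of the match was fixed beforehand. The KO estimate is above the number of reads named in the labels, so the KO read numbers may be too high and the intervals too narrow. Intervals given below for folds and shares are 95% exact binomial (Clopper-Pearson) intervals on estimated reads and cover counting error only, not differences between pools. Taf7l stood at 0.0222 FPKM in WT against 0.00734 FPKM in KO, too low in both to check the genotype labels. The defining markers of brown fat were high in both libraries: Ucp1, the uncoupling protein, had 3720 FPKM in WT against 1639 FPKM in KO, and the mitochondrial subunits Cox8b and Cox7a1 had 5937 FPKM and 3389 FPKM in WT against 2370 FPKM and 1426 FPKM in KO. On log2((KO + 0.1)/(WT + 0.1)), 7 of 12 brown fat markers compared were at least 1.5-fold lower in KO, and 4 were higher by less than 1.5-fold. Among these 4 were the identity factors Prdm16 (1.304 FPKM in WT against 2.003 FPKM in KO) and Ebf2 (2.86 FPKM in WT against 3.89 FPKM in KO). Without the added 0.1, Prdm16 was at 1.54 times the WT level. All 16 fast skeletal muscle markers and all 7 slow ones compared were at least 3-fold higher in KO, with median log2 ratios of 4.35 and 3.88. Of these, the fast markers Myh1, Myh2, Ryr1 and Mybpc2 and every slow one but Mb were under 1 FPKM in WT. They were compared only because of their KO level, so their count was partly fixed by the filter. Casq2, a slow marker not compared, had 0.851 FPKM in WT against 0.821 FPKM in KO. The fast markers summed to 191 FPKM in WT against 2261 FPKM in KO, and none was at 0 in either library. In such bulk RNA more cells of a type and more RNA per cell cannot be told apart, nor can muscle taken along at dissection and muscle within the pad.

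A pair of muscle isoforms, Eno3 and Pgam2, stood out in Taf7l KO BAT as the 2 of 10 members that were 3-fold higher or more, and none was 3-fold lower. Over the 12171 genes that reached 1 FPKM in either library, 2.05% were 3-fold higher and 0.403% 3-fold lower, on log2((KO + 0.1)/(WT + 0.1)), a scale that understates the change of low genes. At 1.5-fold, 4 members were higher (Pgam2, Eno3, Hk1 and Pfkm) and none was lower, against 16.5% and 12.7% of all genes compared (2014 higher and 1541 lower, or 2456 and 1177 once both libraries are rescaled to TPM). After a correction for GC content and transcript length, 2 members remained at least 1.5-fold higher, Pgam2 and Eno3. The median log2 ratio of the members was 0.31 and that of all genes 0.010, or 0.13 and 0.045 after the same correction. The 10 members summed to 1886 FPKM in WT against 1845 FPKM in KO, most of it Aldoa.

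**Figure D1:**
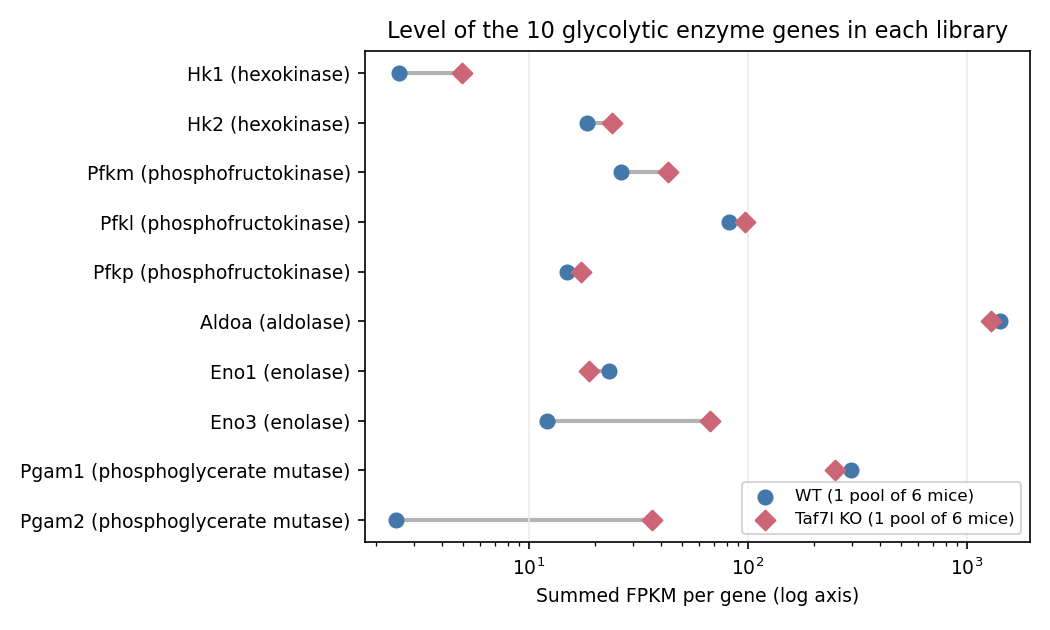
Summed FPKM of each of the 10 genes (log axis) in the WT library (circles) and the Taf7l KO library (diamonds), 1 pool of 6 mice each, with a line joining both. The long lines are those of Pgam2 (2.47 to 36.4 FPKM) and Eno3 (12.2 to 67.1 FPKM), while Aldoa, at 1407 FPKM and 1286 FPKM, lies far to the right of the others with its points nearly touching.

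Phosphoglycerate mutase had the largest difference between its members. Pgam2, the muscle mutase (GRCm38 chr11:5801640-5803733, minus strand), had 2.47 FPKM in WT against 36.4 FPKM in KO, a log2 ratio of 3.83. The KO level was 14.8 times that of WT (interval 10.8 to 20.5), on about 41 reads in WT and 1823 in KO. The WT library thus held little Pgam2, and its few reads set the width of the interval. Pgam1, the general mutase (chr19:41911923-41918660, plus strand), had 297 FPKM in WT against 251 FPKM in KO, 0.845 times the WT level (0.827 to 0.863). Pgam1 was therefore the main mutase transcript in both libraries. The share of Pgam2 in the mutase FPKM was 0.824% in WT (0.592% to 1.11%) and 12.7% in KO (12.2% to 13.2%). The total of both genes was 299 FPKM in WT against 287 FPKM in KO, with differences (KO minus WT) of 33.9 FPKM for Pgam2 and -46.1 FPKM for Pgam1. A row named AK008665 that the table describes as phosphoglycerate mutase 1, on another chromosome and spanning 387 bp, had 436 FPKM in WT against 346 FPKM in KO. RefSeq lists a pseudogene copy of Pgam1, and reads shared between Pgam1 and such copies cannot be separated here. With this row counted as Pgam1 the share of Pgam2 was 0.335% in WT and 5.74% in KO.

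Enolase showed the same pattern, but the shares depend on how the rows are named. Eno3, the muscle enolase (chr11:70657202-70662513, plus strand), had 12.2 FPKM in WT against 67.1 FPKM in KO, a log2 ratio of 2.46. The KO level was 5.52 times that of WT (5.001 to 6.12), on about 413 and 6906 reads. Both Eno3 rows had close ratios, 5.58 and 5.46, but rows of a gene divide its reads, so this is no separate support. The row named Eno1, the general enolase (chr4:150236721-150248879, plus strand), had 23.2 FPKM in WT against 18.7 FPKM in KO, 0.808 times the WT level (0.753 to 0.868). By these names the share of Eno3 was 34.4% in WT (31.8% to 37.0%) and 78.2% in KO (77.4% to 78.9%). That Eno1 row spans 5531 bp and holds a small part of the FPKM at its locus. A pair of rows named EG433182 overlap it in the coordinates of the table. They had 425 FPKM (WT) against 337 FPKM (KO) and 307 FPKM (WT) against 243 FPKM (KO), and the span of one, 5388 bp, is that of a protein-coding Eno1 transcript in GENCODE M21. RefSeq gives EG433182 as a synonym of Eno1b, a near-identical retrogene of Eno1 on another chromosome, whose own row had 289 FPKM in WT against 229 FPKM in KO. A further row named ENO3, spanning 664 bp within the Eno3 locus, had 7.16 FPKM in WT against 54.1 FPKM in KO.

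With the rows at each locus counted whatever their name, Eno1 had 755 FPKM in WT against 599 FPKM in KO and Eno3 19.3 FPKM in WT against 121 FPKM in KO. The share of Eno3 was then 2.50% in WT and 16.8% in KO. Eno1 was the main enolase transcript in both libraries by this count, and the total of the enzyme was 774 FPKM in WT against 721 FPKM in KO, where by name alone it was 35.3 FPKM and 85.9 FPKM. The direction of both genes was the same by either count, with log2 ratios of -0.33 for Eno1 and 2.64 for Eno3 over all rows at the locus. These rows were chosen after the values were seen, and reads shared between Eno1 and its retrogene cannot be told apart.

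**Figure D2:**
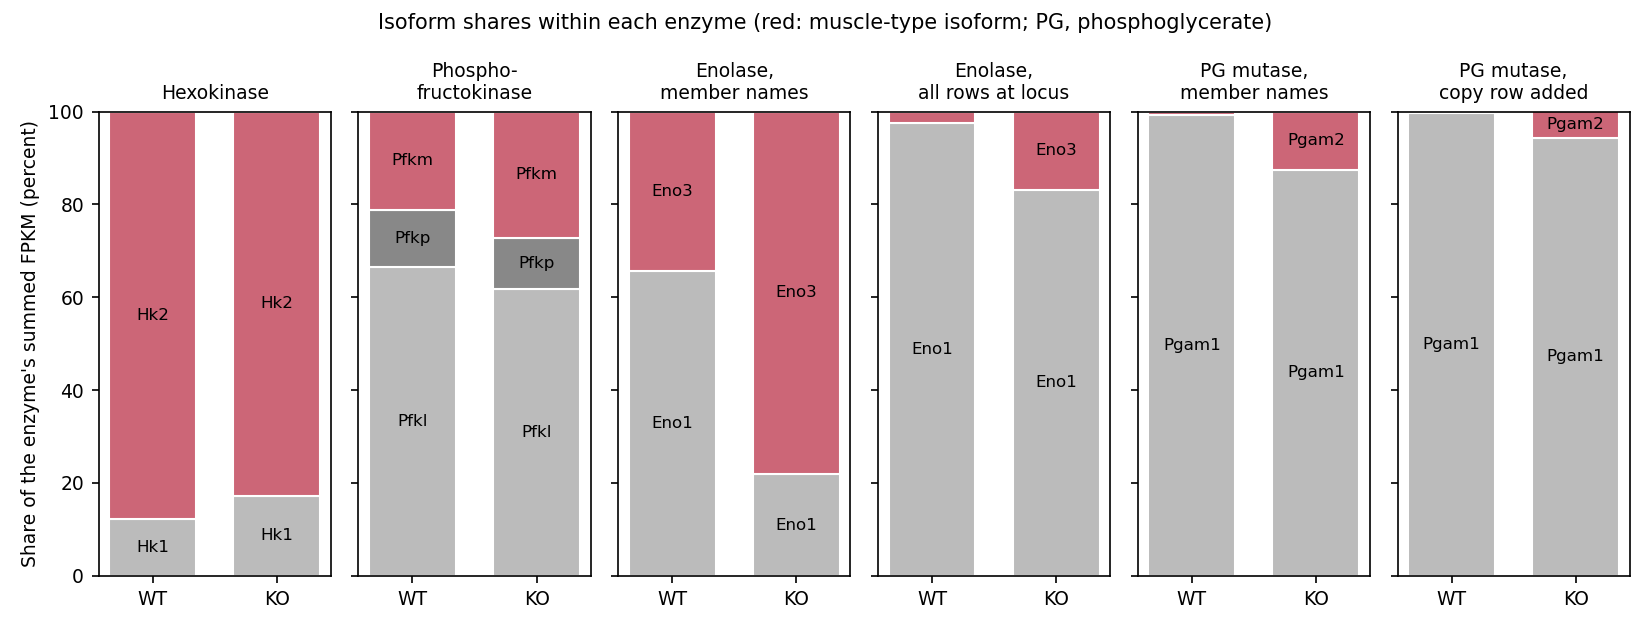
Share of each isoform in the summed FPKM of its enzyme (percent, bars from 0 to 100) in the WT and KO libraries, with the muscle-type isoform in red. The red part grows in KO for phosphofructokinase (21.3% to 27.3%), enolase (34.4% to 78.2% by name, 2.50% to 16.8% with all rows at the locus) and phosphoglycerate mutase (0.824% to 12.7% by name, 0.335% to 5.74% with the copy row), and shrinks for hexokinase (87.8% to 82.8%).

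The promoters of these pairs are shown because the muscle member and the general member of each enzyme moved apart. The sequences are those of RefSeq on GRCm38.p6, read on the strand of the gene, in windows of 300 bases that end 50 bases past the start annotated in RefSeq. The gene coordinates given above are those of GENCODE M21, whose starts differ. The windows of Pgam2 and Pgam1 thus lie wholly upstream of the genes as given above. Capitals mark matches to the GC box GGGCGG on either strand and to the 10-base motif of MEF2, a muscle transcription factor family. Of the 3 annotated starts of Eno1, the second is shown. The windows are chr11:5803747-5804046 (minus strand) for Pgam2, chr19:41911621-41911920 (plus strand) for Pgam1, chr11:70656926-70657225 (plus strand) for Eno3 and chr4:150236947-150237246 (plus strand) for Eno1.
Pgam2: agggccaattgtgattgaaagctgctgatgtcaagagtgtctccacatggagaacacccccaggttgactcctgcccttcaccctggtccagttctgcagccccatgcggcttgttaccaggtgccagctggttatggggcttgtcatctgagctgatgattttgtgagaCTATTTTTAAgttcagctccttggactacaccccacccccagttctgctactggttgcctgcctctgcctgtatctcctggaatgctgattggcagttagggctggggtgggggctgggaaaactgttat
Pgam1: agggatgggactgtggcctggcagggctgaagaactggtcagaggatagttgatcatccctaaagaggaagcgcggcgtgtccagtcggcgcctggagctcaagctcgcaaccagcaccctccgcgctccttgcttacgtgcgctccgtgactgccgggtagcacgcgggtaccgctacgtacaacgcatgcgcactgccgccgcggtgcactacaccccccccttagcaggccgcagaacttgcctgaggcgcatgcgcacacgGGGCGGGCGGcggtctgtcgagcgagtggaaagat
Eno3: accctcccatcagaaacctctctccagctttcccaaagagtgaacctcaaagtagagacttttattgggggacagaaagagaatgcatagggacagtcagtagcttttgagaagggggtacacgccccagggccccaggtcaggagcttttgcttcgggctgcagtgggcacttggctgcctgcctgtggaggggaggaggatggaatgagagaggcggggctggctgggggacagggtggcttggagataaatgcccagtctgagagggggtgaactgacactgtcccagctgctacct
Eno1: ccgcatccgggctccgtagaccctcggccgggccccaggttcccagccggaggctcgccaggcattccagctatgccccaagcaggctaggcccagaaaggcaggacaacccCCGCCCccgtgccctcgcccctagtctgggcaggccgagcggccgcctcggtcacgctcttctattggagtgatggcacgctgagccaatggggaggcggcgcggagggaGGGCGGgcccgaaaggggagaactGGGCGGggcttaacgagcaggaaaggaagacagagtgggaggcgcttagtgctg
The windows of Pgam2 and Eno3 hold 1 and 3 CpG and no GC box. Those shown of Pgam1 and Eno1 hold 30 and 24 CpG and 2 and 3 GC boxes, the 2 of Pgam1 overlapping. The first start of Eno1, not shown, has 14 CpG and no GC box, and the third has 25 CpG and 3 GC boxes. The MEF2 motif occurs once, in Pgam2, from 80 to 71 bases before the RefSeq start. Over the 18 annotated starts of the 10 members, none of the 6 of Pfkm, Eno3 and Pgam2 and 8 of the 12 others held a GC box, against 35.7% of all 32851 promoters in the table, and 1 of 18 held the MEF2 motif, against 3.19% of all. Hk2, with 3 GC boxes, is counted among the others, Pfkm has 4 of the 6 starts, and windows of neighbouring starts of Pfkm, Eno1 and Aldoa overlap, so the starts are not separate promoters. The E-box CANNTG, bound by myogenic and many other factors, was in 12 of the 18, against 72.3% of all. The CArG box was in none of the 18, against 1.63% of all. A match of letters is a description and shows no binding.

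Of the phosphofructokinases, Pfkm passed 1.5-fold, and Pfkl and Pfkp did not. Pfkm, the muscle subunit (chr15:98092589-98132451, plus strand), had 26.3 FPKM in WT against 43.0 FPKM in KO, 1.64 times the WT level (1.56 to 1.72). Pfkl, the liver-type subunit (chr10:77986947-78010083, minus strand), had 81.9 FPKM in WT against 97.3 FPKM in KO, 1.19 times (1.16 to 1.22), a direction that turned after the correction for GC content and transcript length, and Pfkp, the platelet-type subunit (chr13:6579768-6648777, minus strand), 14.9 FPKM in WT against 17.3 FPKM in KO, 1.16 times (1.09 to 1.23). Pfkl was the highest of the 3 in both libraries. The share of Pfkm was 21.3% in WT (20.5% to 22.2%) and 27.3% in KO (26.8% to 27.7%), that of Pfkl 66.5% and 61.7%, and that of Pfkp 12.1% and 10.998%. The enzyme total was 123 FPKM in WT against 158 FPKM in KO. Pfkm was thus higher in WT than Eno3 and Pgam2 by name, and its difference of 16.7 FPKM (KO minus WT) lay near that of Pfkl, 15.3 FPKM.

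Hexokinase went the other way, with the general form gaining share. Hk2, the form of muscle and fat (chr6:82725025-82774454, minus strand), had 18.3 FPKM in WT against 23.9 FPKM in KO, 1.302 times the WT level (1.25 to 1.36). Its log2 ratio fell from 0.38 to 0.075 after the correction for GC content and transcript length. Hk1 (chr10:62268855-62379908, minus strand) had 2.55 FPKM in WT against 4.97 FPKM in KO, 1.95 times (1.71 to 2.23). The share of Hk2 was 87.8% in WT (86.4% to 89.1%) and 82.8% in KO (82.0% to 83.5%), so Hk2 was the main hexokinase transcript in both. Among the 11 rows of Hk1, the 2 highest, which span 111054 bp and 71567 bp, both had a KO to WT ratio of 2.32 and together hold most of the FPKM of the gene. The next highest row, spanning 64523 bp, had 0.259 FPKM in WT against 0.203 FPKM in KO. Of other hexokinase genes, Hk3 was low, at 0.360 FPKM in WT against 0.415 FPKM in KO, and Hkdc1 was listed at 0 in both.

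Aldoa (chr7:126795234-126800751, minus strand) was the highest of the members, with 1407 FPKM in WT against 1286 FPKM in KO, 0.914 times the WT level (0.904 to 0.923). It ranked 70 of the genes compared in WT and 59 in KO. Its 3 rows had ratios of 0.909, 0.917 and 0.915, the first being that of the longest, which spans 5214 bp. Aldoc, the aldolase of brain, was low, at 0.435 FPKM in WT against 0.179 FPKM in KO. The retrogene Aldoart1, which is similar in sequence, had 12.0 FPKM in WT against 10.5 FPKM in KO. The rows of a member lay close to each other in several genes, as in Pfkm, whose 3 rows had 8.86 FPKM, 8.75 FPKM and 8.64 FPKM in WT. The authors ran 1 iteration of the step that divides reads between transcripts, so such rows were not read here as separate transcripts.

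**Figure D3:**
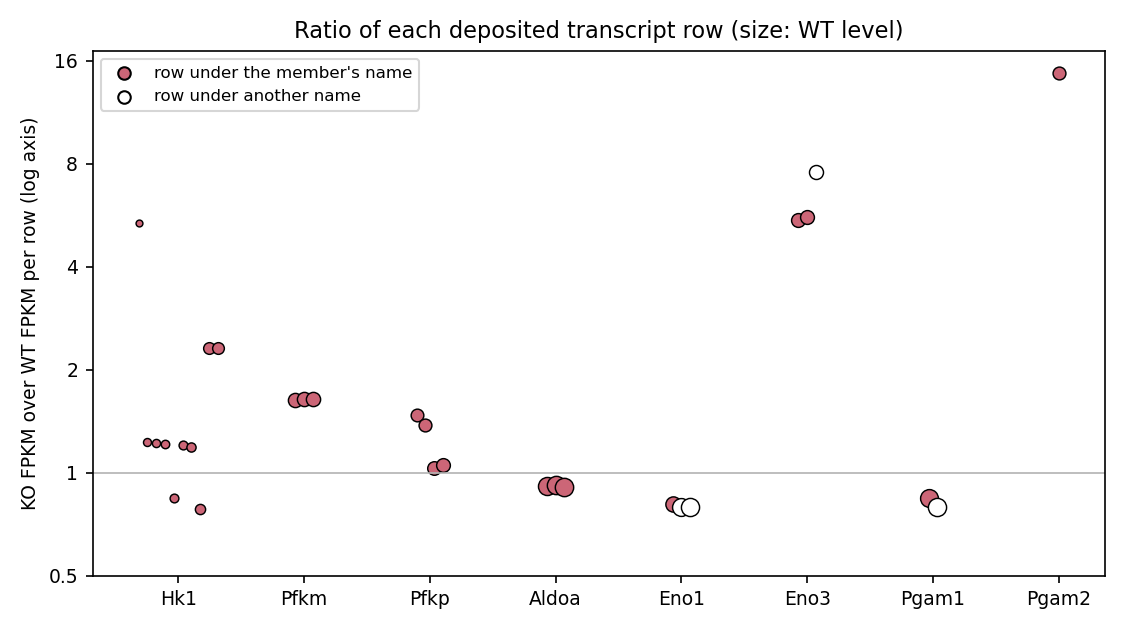
Ratio of KO to WT FPKM (log axis) for each deposited transcript row above 0 in both libraries, by gene. Hk2 and Pfkl, with 1 row each, are not drawn. The size of a point grows with the WT level, and open points are rows listed under another name. The 3 rows of Pfkm lie together near 1.64 and those of Aldoa near 0.91, whereas the rows of Hk1 spread from 0.784 to 5.37, the highest ratio being that of a row at 0.0141 FPKM in WT.

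In order of the ratio, the members ran Pgam2, Eno3, Hk1, Pfkm, Hk2, Pfkl, Pfkp, Aldoa, Pgam1 and Eno1. The intervals of Hk1 and Pfkm overlap, as do those of Pfkl and Pfkp and those of Pgam1 and Eno1, so these neighbours are not ordered beyond counting error. Of the genes compared, 0.789% had a higher ratio than Pgam2, 1.32% than Eno3, 6.87% than Hk1 and 12.3% than Pfkm. The median log2 ratio followed GC content over all genes, being 0.36 in the 2093 genes of highest GC content and -0.32 in the 2093 of lowest. The transcripts of the members have GC contents from 48.9% (Pfkp) to 57.4% (Eno1). After a correction for GC content and transcript length the log2 ratio was 3.98 for Pgam2 and 2.44 for Eno3, but 0.45 for Hk1 and 0.47 for Pfkm, under 1.5-fold, and that of Pfkl turned from 0.25 to -0.22.

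The muscle isoforms were set beside the markers of muscle fibres. The log2 ratios of the 16 fast markers ran from 1.84 (Myl1, a myosin light chain) to 5.40 (Myh1, a fast myosin heavy chain). Pgam2, at 3.83, was above 4 of the 16 and Eno3, at 2.46, above 1, while the other members were below all 16. Among the highest markers, Acta1, skeletal muscle actin, had 9.92 FPKM in WT against 348 FPKM in KO, Myl1 had 78.4 FPKM in WT against 280 FPKM in KO, and Tnnc2, fast troponin C, had 7.88 FPKM in WT against 248 FPKM in KO. Of the slow markers, Mb, the oxygen carrier myoglobin, had 3.60 FPKM in WT against 47.3 FPKM in KO, Myl2, a slow myosin light chain, 0.628 FPKM in WT against 15.3 FPKM in KO, and Tnnt1, slow troponin T, 0.267 FPKM in WT against 12.3 FPKM in KO. The part of muscle fibres in the values of Pgam2 and Eno3 was not tested.

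Among 8377 genes with a symbol in the reference and no row under 200 bp, the nearest to Pgam2 in the levels of both libraries were Pygm, the muscle glycogen phosphorylase (2.58 FPKM in WT, 31.0 FPKM in KO), Actn3, the alpha-actinin of fast fibres (2.61 FPKM, 52.7 FPKM), and Mb. Their distances on the log2 scale were 0.24, 0.54 and 0.65. Eno3 had no gene as near, its closest being Des, the muscle intermediate filament desmin (19.5 FPKM in WT, 54.1 FPKM in KO), at 0.74, then Anp32b at 0.79 and Grn at 0.79. Pfkm was nearest to Stk11, a kinase that acts on AMPK, at 0.034, then Napa at 0.049 and Scpep1 at 0.070. A pattern over 2 libraries is 1 level and 1 ratio, so that nearness says little where many genes are alike, as around Pfkm.

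Other glycolysis genes were looked up by lists of their roles. On 4 lists of other glycolysis genes, 22 of 34 genes in the table reached 1 FPKM, with a median log2 ratio of -0.0055. None of the 22 was 3-fold higher or lower, 2 (Pfkfb3 and Slc2a8) passed 1.5-fold upward and 1 (Slc2a4) downward. Over all 12171 genes compared, 2.05% were 3-fold higher and 0.403% lower, and 16.5% and 12.7% passed 1.5-fold. At such 3-fold shares, none among 22 genes says little about these lists. Of the other steps, none of 11 genes passed 1.5-fold either way. Gapdh, which oxidises the triose phosphate, had 1209 FPKM in WT against 1153 FPKM in KO, and Pgk1, the next step, 326 FPKM in WT against 323 FPKM in KO. Pyruvate kinase, listed as Pkm2, had 890 FPKM in WT against 632 FPKM in KO, and Tpi1, triose phosphate isomerase, 314 FPKM in WT against 245 FPKM in KO. Gpi1, which isomerises glucose 6-phosphate, had 191 FPKM in WT against 207 FPKM in KO. These 5 enzymes thus had ratios under 1.5-fold, as Aldoa and Pgam1 did. Ldha, the lactate dehydrogenase subunit common in muscle, had 725 FPKM in WT against 666 FPKM in KO, and Ldhb, the subunit common in heart, 472 FPKM in WT against 481 FPKM in KO. Bpgm, a mutase relative that makes the regulator of haemoglobin, had 11.4 FPKM in WT against 11.9 FPKM in KO. Adpgk, Ldhc and Gapdhs were under 6 FPKM in both libraries with log2 ratios of 0.20, 0.0024 and 0.44.

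Of the enzymes that set the level of fructose 2,6-bisphosphate, the activator of phosphofructokinase, Pfkfb3 had 59.0 FPKM in WT against 97.8 FPKM in KO, 1.66 times the WT level. Pfkfb1 had 23.7 FPKM in WT against 18.1 FPKM in KO, while Pfkfb2 and Pfkfb4 were near 2 FPKM and 1 FPKM with log2 ratios of -0.057 and 0.11. Tigar, which lowers the same activator and is listed as 9630033F20Rik, had 2.53 FPKM in WT against 2.67 FPKM in KO. Fbp2, the muscle fructose bisphosphatase, had 11.4 FPKM in WT against 9.54 FPKM in KO, so this muscle enzyme of the reverse reaction was not higher in KO. Of the glucose transporters, Slc2a4 (GLUT4), the insulin-responsive carrier of muscle and fat, had 91.6 FPKM in WT against 58.0 FPKM in KO, 0.634 times the WT level. Slc2a8 had 5.57 FPKM in WT against 9.60 FPKM in KO, and Slc2a1 (GLUT1) 1.36 FPKM in WT against 1.79 FPKM in KO. The lactate and pyruvate carrier Slc16a1 (MCT1) had 56.9 FPKM in WT against 44.1 FPKM in KO, and Slc16a7 4.01 FPKM in WT against 3.51 FPKM in KO.

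**Figure D4:**
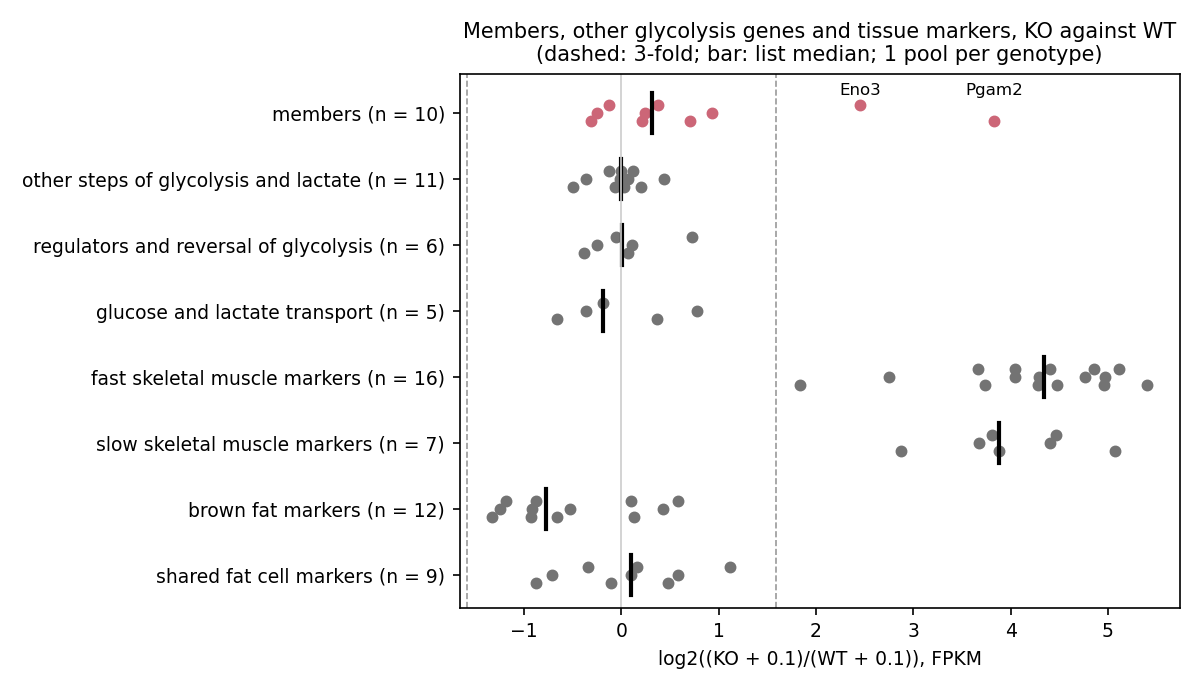
log2((KO + 0.1)/(WT + 0.1)) of FPKM for the genes compared of each list (1 point per gene, 1 pool per genotype), with a bar at the list median and dashed lines at 3-fold. Of the members, Eno3 (2.46) and Pgam2 (3.83) lie past the line. All fast and slow muscle markers compared lie there too (medians 4.35 and 3.88). Casq2, a slow marker under 1 FPKM in both libraries, is not drawn. Eno3 is below all 7 slow markers compared and all but 1 of the 16 fast ones. The other steps of glycolysis stay near 0 and the 12 brown fat markers have a median of -0.77.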

How the data were processed

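For each genotype, BAT RNA of 6 mice was pooled and sequenced once. Reads were mapped by the authors with TopHat version 1.4.0 and expression was estimated with cufflinks (version 1.3.0), limited to 1 likelihood iteration. The authors deposited FPKM, 1 value per UCSC transcript. The submitters' processing notes give mm10. Row starts were checked against GRCm38 for 7067 genes that have a single row, and 314 lay within 1000 bp, so positions in the table serve here only to see which rows overlap. FPKM were summed per gene name with Python 3.11.15, pandas 2.3.3 and numpy 2.4.6, and drawn with matplotlib 3.10.9. The log2((KO + 0.1)/(WT + 0.1)) was taken for genes reaching 1 FPKM in either library, with the 3-fold threshold of the study and 1.5-fold beside it. No test was made between genotypes.

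Depth was taken as the most frequent FPKM times effective length (fragments of 200 bp, SD 80 bp) among genes with 1 row and 1 exon, read as 1 read. Reads per row came from the GENCODE M21 coding transcript with a span within 30 bp, otherwise the longest one, and intervals are exact binomial ones with scipy 1.17.1. No row of Hk1, Pfkp, Eno1, Pgam1 or Pgam2 had such a span match, so their read numbers are approximate. The calls were tested on simulated data. Members and lists were chosen with earlier results of these data known. Named are all members, genes of the 4 other glycolysis lists at 1 FPKM or more, the 3 highest genes of each marker list (1 of them is not reported here), Taf7l, and the 3 genes nearest to Pfkm, Eno3 and Pgam2. Myh1, Myh2, Ryr1, Mybpc2, Casq2, Prdm16, Ebf2, Kdr, Tie1, Csf1r, Myh11, P4ha1, Slc16a3, paralogs below 1 FPKM and gene copies were added after their values were seen. ChIP-seq and 3C data of the study were not analysed here.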

Additional observations from a re-analysis of the deposited data

How the results depend on the processing

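The alternatives covered the pseudocount (1 FPKM and 0.01 FPKM), the scaling, the filter, the threshold, single rows, rows under 200 bp and other paralogs; correcting for GC content and length, and adding rows under other names, were chosen after seeing the data. None changed the sign of a member past 1.5-fold. Recomputed log2 ratios of members lay within the counting interval in 57 cases and outside it in 16. Of 12171 genes, 250 were 3-fold higher and 49 lower, but 144 and 28 with a pseudocount of 1 FPKM. With no filter 353 and 93 of 30649 genes passed, and at a minimum of 10 FPKM 103 and 30 of 4924. Without rows under 200 bp 194 and 21 of 12016 passed, and after the GC and length correction 124 and 0 of 8372. The genes compared differ between these settings, so a change of count is not due to the setting's effect on the ratios alone. At 1.5-fold the 2014 higher and 1541 lower became 3224 and 2384 with no filter, 656 and 718 at the minimum of 10 FPKM, and 928 and 534 after the correction. At 2-fold, 729 were higher and 339 lower. Rescaling to TPM moves the median of all genes by 0.089. After the GC and length correction 2 members were at least 1.5-fold higher, and of the other glycolysis genes 0 were. Of those genes, 1 was at least 1.5-fold higher at a minimum of 10 FPKM, and at least 1.5-fold lower were 0 on the TPM scale and 2 with no filter.

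Isoform shares moved more. With all paralogs counted the share of Hk2 was 83.9% in WT and 80.4% in KO. With the highest row only, the shares in WT and KO were 95.3% and 91.9% for Hk2, 9.20% and 12.3% for Pfkm, and 20.9% and 64.6% for Eno3. In estimated reads, which weigh long transcripts more, they were 90.4% and 86.2% for Hk2, 16.7% and 21.7% for Pfkm, 27.4% and 72.0% for Eno3, and 0.338% and 5.57% for Pgam2. With rows under other names they were 2.50% and 16.8% for Eno3 and 0.335% and 5.74% for Pgam2. Hk2 was lower and the muscle isoforms higher in KO under each of these. No paired analysis was possible because each genotype has a single library. Eno4 was not analysed here.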

Other observations

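Outside glycolysis, 9 genes of the response to low oxygen were looked up, since many glycolytic genes are also targets of that response. Of the 6 at 1 FPKM or more, P4ha1, a collagen prolyl hydroxylase, was at least 1.5-fold higher in KO (4.87 FPKM in WT, 8.38 FPKM in KO) and Bnip3, a mitophagy receptor, at least 1.5-fold lower (274 FPKM in WT, 154 FPKM in KO). Vegfa, the main signal for vessel growth, had 83.9 FPKM in WT against 118 FPKM in KO, and Ndrg1 13.2 FPKM in WT against 10.98 FPKM in KO. The median of the 6 was 0.18. All 6 endothelial markers were slightly higher in KO, from a log2 ratio of 0.019 for Kdr to 0.53 for Tie1, and none by 1.5-fold. Over all 12171 genes compared, 6184 were higher. The endothelial median of 0.22 became 0.034 after the correction for GC content and length. Cdh5 had 29.1 FPKM in WT against 36.1 FPKM in KO, Pecam1 20.7 FPKM and 25.5 FPKM, and Cldn5 21.3 FPKM and 22.6 FPKM.

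Markers of other cells moved less than those of muscle fibres. Of 5 macrophage markers, Cd68 (3.75 FPKM in WT against 6.40 FPKM in KO) and Csf1r passed 1.5-fold upward and the list median was -0.019, with C1qa at 28.7 FPKM in WT against 26.1 FPKM in KO and C1qb at 31.6 FPKM and 31.2 FPKM. Of 4 smooth muscle markers 1 was, Myh11, with a median of 0.39, Myl9 at 17.1 FPKM in WT against 23.9 FPKM in KO, Acta2 at 13.2 FPKM and 16.2 FPKM and Tagln at 15.6 FPKM and 11.6 FPKM. The nerve and Schwann cell markers had a median of -0.37 over 4 genes and those of red blood cells -0.21 over 3, with S100b at 41.7 FPKM in WT against 37.2 FPKM in KO and Mbp at 15.7 FPKM and 13.8 FPKM. Of the red blood cell genes Hbb-b1 had 3876 FPKM in WT against 2038 FPKM in KO, Hba-a2 1812 FPKM and 2497 FPKM, and Alas2 10.2 FPKM and 8.84 FPKM. Of 9 shared fat cell markers, 2 were at least 1.5-fold higher and 2 at least 1.5-fold lower, with a median of 0.098. Fabp4 had 19657 FPKM in WT against 10713 FPKM in KO, Cfd 1863 FPKM and 2078 FPKM, and Adipoq 1227 FPKM and 968 FPKM.

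Slc16a3 (MCT4), a lactate exporter of fast fibres, was chosen after its values were seen. It had 0.222 FPKM in WT against 0.813 FPKM in KO, below the minimum of 1 FPKM in both.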
